A study of Canis lupus familiaris with 13 samples.

Results

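The genes described here are the myogenic regulatory factors MYOD1, MYOG, MYF5 and MYF6, the stem cell factor PAX7, the ID inhibitors ID1 and ID3, and the MEF2 factors MEF2A and MEF2C, as measured by RNA sequencing in dog skeletal muscle. They were taken by symbol from a table of 30951 genes. The list named 10 symbols, of which 9 were matched, and all 9 passed the filter on low counts. ID2 was not analysed here. The 13 libraries came from biopsies of the biceps femoris, a thigh muscle, of 4 dogs, all wild-type and between 9 and 10 months old. The basal group (n = 3) has sample number 0 and holds dogs 2, 3 and 4. The group labelled as stimulated with insulin (n = 10) has sample number 1 in dogs 1 to 4, sample number 2 in dogs 1 to 4 and sample number 3 in dogs 1 and 2. The labels give neither the insulin dose or duration nor the meaning of the sample number, so the numbers are used as names and not as an order in time.

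MYOD1, MYOG, MYF5 and MYF6 are basic helix-loop-helix transcription factors that pair with E proteins, bind E-box sites and switch on muscle genes. ID proteins have the helix-loop-helix but lack the basic region that contacts DNA, so they tie up E proteins and keep myogenic factors from binding. PAX7 marks satellite cells, the stem cells that lie along muscle fibres, and MEF2 proteins are partners of the myogenic factors on muscle promoters. In adult muscle MYF6 is the myogenic factor that fibres keep at a high level, while MYF5 belongs mainly to satellite cells.

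Library totals ranged from 45200416 to 81948641 counts. Levels are given as CPM, counts scaled to the library total. Transcript lengths were not used here, so levels are compared between libraries and not between genes. Markers of muscle fibres summed to between 256800 and 434600 CPM in every library, and 0 of 13 such markers were at 0 throughout. The basal library of dog 3 stood apart in markers of some other cells. Its 10 fibroblast and matrix markers summed to 3038 CPM, against 254.4 to 1237 CPM in the other libraries, and it also had the highest sums of endothelial (494 CPM), macrophage (56.8 CPM), neutrophil (73.1 CPM) and nerve markers (72.7 CPM). It was not the highest for smooth muscle, adipocyte, red blood cell or lymphocyte markers. The biopsies are whole tissue, and in such samples fewer cells of a type and less RNA per cell cannot be told apart. Libraries of the same dog come from 1 animal, so each model held the dog as a block. The p-values measure the spread left between libraries within dogs, with insulin libraries of 1 animal counted as separate samples. They do not measure how a response would vary between animals.

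MYOD1 (ENSCAFG00000009066), the factor that commits cells to the muscle lineage, was higher in every insulin library than in any basal library. The basal libraries of dogs 2, 3 and 4 held 2.97, 1.45 and 1.085 CPM, from 189, 98 and 47 counts. In dog 2 the insulin libraries held 14.7, 6.82 and 9.35 CPM in samples 1, 2 and 3. Dog 3 held 13.7 and 15.4 CPM and dog 4 held 13.2 and 13.7 CPM in samples 1 and 2. The rise was thus smaller in dog 2, where the mean of the insulin libraries was 3.46 times the basal level, than in dog 3 at 10.1 times and dog 4 at 12.4 times. Dog 1, which has no basal library, was the lowest of the 4 dogs under insulin, with 5.597, 5.12 and 4.64 CPM in samples 1, 2 and 3.

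Across libraries the mean of MYOD1 rose from 1.83 ± 0.999 CPM (SD, n = 3) to 10.2 ± 4.36 CPM (n = 10). The log2 fold change was 2.76 ± 0.36 (SE), with a 95% interval from 1.99 to 3.53 and an adjusted p of 0.00561 in edgeR's quasi-likelihood test, and all 7 insulin libraries with a basal library of their own dog lay above it. The fold change stayed above 2.4 on the log2 scale in each alternative tried, but the call did not hold in 6 of 23. The adjusted p was 0.342 with the insulin libraries summed per dog and 0.0675 with no dog block. Leaving out the basal library of dog 3 gave 0.0583 and that of dog 4 gave 0.0545, and leaving out all libraries of dog 3 or of dog 4 gave 0.124 and 0.143. Neutrophil markers had a median log2 fold change of -1.05 between the same libraries, and 0 of 5 tested passed in edgeR or DESeq2. S100A12, CSF3R and CXCR2 had an unadjusted p under 0.05, as did 4.12% of all genes, and all 3 were lower. These 3 are scarce, with mean log2 CPM of 0.69, 0.05 and -3.05. S100A8, the most abundant of the 5, had -0.50 ± 0.37, with means of 42.9 CPM in basal and 31.0 CPM in insulin. LCN2 had 0.53 ± 0.83. Summed over the 6 neutrophil markers found, the level was 29.9 to 73.1 CPM in the basal and 22.7 to 63.9 CPM in the insulin group. None of the 6 was at 0 throughout. The basal library of dog 3, which had the highest neutrophil and fibroblast sums, is 1 of those without which the call was lost. That of dog 4, without which the call was also lost, had the lowest fibroblast sum of all libraries, 254.4 CPM. Its neutrophil sum of 29.9 CPM was the lowest of the basal group. The part of these markers in the result was not tested.

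**Figure D1:**
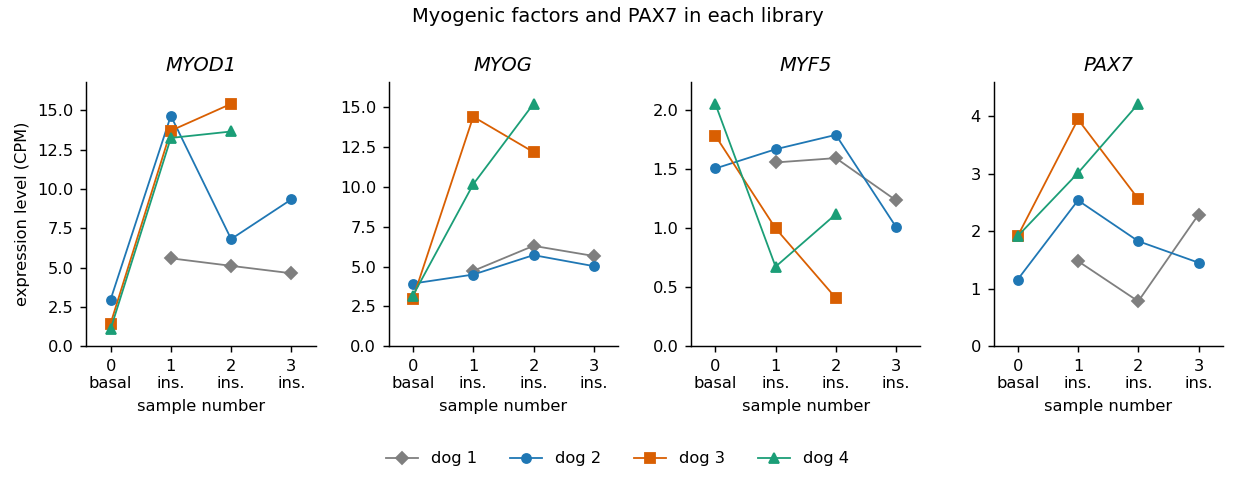
Expression level in CPM (vertical axis, from 0) of MYOD1, MYOG, MYF5 and PAX7 against the sample number (0 is basal, 1 to 3 are insulin). Each point is 1 library and lines join the libraries of 1 dog without implying an order in time. All 10 insulin libraries lie above the 3 basal ones for MYOD1 and MYOG, whereas those of MYF5 and PAX7 overlap.

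MYOG (ENSCAFG00000010309), or myogenin, acts later than MYOD1 and drives the last step of fibre formation. The basal libraries of dogs 2, 3 and 4 were close together, at 3.94, 3.00 and 3.19 CPM. In dog 3 the level was 14.4 and 12.2 CPM in samples 1 and 2, and in dog 4 it was 10.2 and 15.2 CPM. In dog 2 samples 1, 2 and 3 held 4.50, 5.72 and 5.03 CPM, a mean of 1.29 times the basal level, against 4.44 times in dog 3 and 3.98 times in dog 4. Dog 1 held 4.73, 6.31 and 5.67 CPM, near the insulin libraries of dog 2 and below those of dogs 3 and 4.

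The insulin libraries of MYOG did not overlap the basal ones, and the log2 fold change was 1.37 ± 0.31 (95% interval 0.69 to 2.04). The adjusted p of edgeR was 0.188, so MYOG did not pass over all genes. It passed without dog 2 sample 0 (2.07, adjusted p = 0.00573), without the whole of dog 2 (2.07, adjusted p = 0.0177), with no filter on low counts (1.37, adjusted p = 0.000312) and in DESeq2 (1.37, adjusted p = 0.00357). In the other 19 alternatives it did not pass. Its log2 fold change was 1.05 (adjusted p = 0.687) without dog 3 sample 0, 1.10 (0.952) without dog 4 sample 0, 1.04 (0.948) without the whole of dog 3, 1.10 (1.00) without the whole of dog 4 and 1.53 (0.911) with the insulin libraries summed per dog. The size thus moved with each of the 3 dogs that have a basal library, upwards without dog 2 and downwards without dog 3 or dog 4. Whether the dogs differ in their response was not tested.

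MYF5 (ENSCAFG00000005808), which with PAX7 marks satellite cells, had the opposite sign. Basal levels were 1.51, 1.79 and 2.06 CPM in dogs 2, 3 and 4. Dog 3 held 1.00 and 0.409 CPM in samples 1 and 2, and dog 4 held 0.675 and 1.12 CPM. In dog 2 samples 1, 2 and 3 held 1.67, 1.79 and 1.01 CPM, and the mean was 0.989 times the basal level, against 0.394 times in dog 3 and 0.437 times in dog 4. Dog 1 held 1.56, 1.59 and 1.24 CPM. MYF5 was thus below its own basal library in 5 of 7 insulin libraries, and 6 of 10 insulin libraries were below all basal ones, while the groups overlapped. The log2 fold change was -0.86 ± 0.36 (95% interval -1.63 to -0.08, adjusted p = 1). The counts behind it were small, from 22 in dog 3 sample 2 to 125 in dog 2 sample 1.

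MYF6 (ENSCAFG00000005805) lies next to MYF5 in the RefSeq gene order of the dog assembly UU_Cfam_GSD_1.0, with no other gene between them. Its log2 fold change of -0.0044 ± 0.35 had a 95% interval from -0.77 to 0.76 (adjusted p = 1), which includes changes of over 1.5 times in both directions. The levels differed more between dogs than between stimulations. Dog 3 held 72.9 CPM in basal and 67.2 and 63.2 CPM in insulin samples 1 and 2, and dog 4 held 56.0, 59.6 and 51.4 CPM. Dog 2 was lower throughout, with 22.4 CPM in basal and 16.1, 23.7 and 35.0 CPM in samples 1, 2 and 3. Dog 1 held 33.2 and 25.3 CPM in samples 1 and 3 but 99.97 CPM in sample 2. That library had the highest summed level of fibre markers, 434600 CPM.

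PAX7 (ENSCAFG00000015539), the transcription factor that maintains satellite cells, was above its own basal library in 7 of 7 insulin libraries. Dog 2 held 1.16 CPM in basal and 2.54, 1.83 and 1.45 CPM in samples 1, 2 and 3. Dog 3 held 1.92 CPM in basal and 3.95 and 2.56 CPM in samples 1 and 2. Dog 4 held 1.92 CPM in basal and 3.02 and 4.22 CPM in samples 1 and 2. Unlike MYOD1 and MYOG, the ratio of the insulin mean to basal was much the same in the 3 dogs, at 1.67, 1.70 and 1.89 times. Dog 1 held 1.48, 0.783 and 2.29 CPM, so the groups overlapped, and its sample 2 was the lowest library. The log2 fold change was 0.80 ± 0.33 (95% interval 0.09 to 1.52, adjusted p = 1), so PAX7 did not pass, and it kept its sign in all 23 alternatives, from 0.53 to 0.88.

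Other satellite cell markers gave no common direction. Of 14 tested, PAX7 and MYF5 included, 6 had a positive and 8 a negative log2 fold change, 0 passed in edgeR and 0 in DESeq2, and 4 had an unadjusted p under 0.05 (PAX7, MYF5, MEGF10 and the scarce CHRDL2, a BMP antagonist, at 1.199 ± 0.52). Their median was -0.14, against -0.001 over all 14629 genes tested, of which 4.12% had an unadjusted p under 0.05. The summed level of the 14 markers was 331 to 388 CPM in the basal and 197 to 420 CPM in the insulin group. Most of this sum is the single gene ITGA7, with means of 255 CPM in basal and 236 CPM in insulin. The sum therefore says little about the scarcer markers and is not a measure of satellite cell number. MEGF10, a surface receptor of satellite cells, had -0.63 ± 0.27 and was below its own basal library in 7 of 7 insulin libraries, opposite in sign to PAX7. SDC4, a heparan sulphate proteoglycan on these cells, had 0.71 ± 0.43, and CD34, which endothelium also carries, had -0.60 ± 0.42 (adjusted p = 1 for all 3).

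ID1 (ENSCAFG00000007045) and ID3 (ENSCAFG00000013269), the inhibitors of the myogenic factors, had no common direction over the dogs. In dog 2 ID1 held 4.52 CPM in basal and 10.4, 9.35 and 8.52 CPM in samples 1, 2 and 3. In dog 3 it held 7.78 CPM in basal and 6.63 and 7.38 CPM in samples 1 and 2. In dog 4 it held 9.40 CPM in basal and 1.84 and 4.65 CPM. The insulin mean of ID1 was thus 2.09 times basal in dog 2, 0.901 times in dog 3 and 0.345 times in dog 4. Dog 1 held 7.84, 5.91 and 5.68 CPM. The log2 fold change was -0.30 ± 0.39 (95% interval -1.14 to 0.55, adjusted p = 1), and it was 0.44 without dog 4 sample 0 and -0.89 without the whole of dog 2.

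ID3 also started from its lowest level in the basal library of dog 2, at 3.50 CPM, where samples 1, 2 and 3 held 11.4, 7.02 and 14.6 CPM. In dog 3 it held 9.31 CPM in basal and 9.38 and 7.14 CPM in samples 1 and 2. In dog 4 it held 6.31 CPM in basal and 5.36 and 6.77 CPM. The insulin mean was 3.14 times basal in dog 2, 0.887 times in dog 3 and 0.962 times in dog 4. Dog 1 held 8.02, 10.6 and 5.61 CPM. The log2 fold change was 0.41 ± 0.35 (95% interval -0.34 to 1.16, adjusted p = 1), and without dog 2 sample 0 it was -0.12.

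Both ID genes are active in endothelium as well as in muscle precursors. The summed level of 15 endothelial markers in dog 2 was 148 CPM in basal and 431, 171 and 256 CPM in samples 1, 2 and 3, so the basal library of dog 2 was the lowest of that dog for these markers and for both ID genes. In dog 3 the sums were 494 CPM in basal and 399 and 290 CPM in samples 1 and 2, and in dog 4 they were 215, 252 and 322 CPM. Over all libraries they ranged from 148 to 494 CPM in basal and from 122.7 to 431 CPM in insulin. None of the 15 markers was at 0 throughout, 0 passed in edgeR, 0 in DESeq2 and 0 had an unadjusted p under 0.05. Their part in the ID values was not tested.

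**Figure D2:**
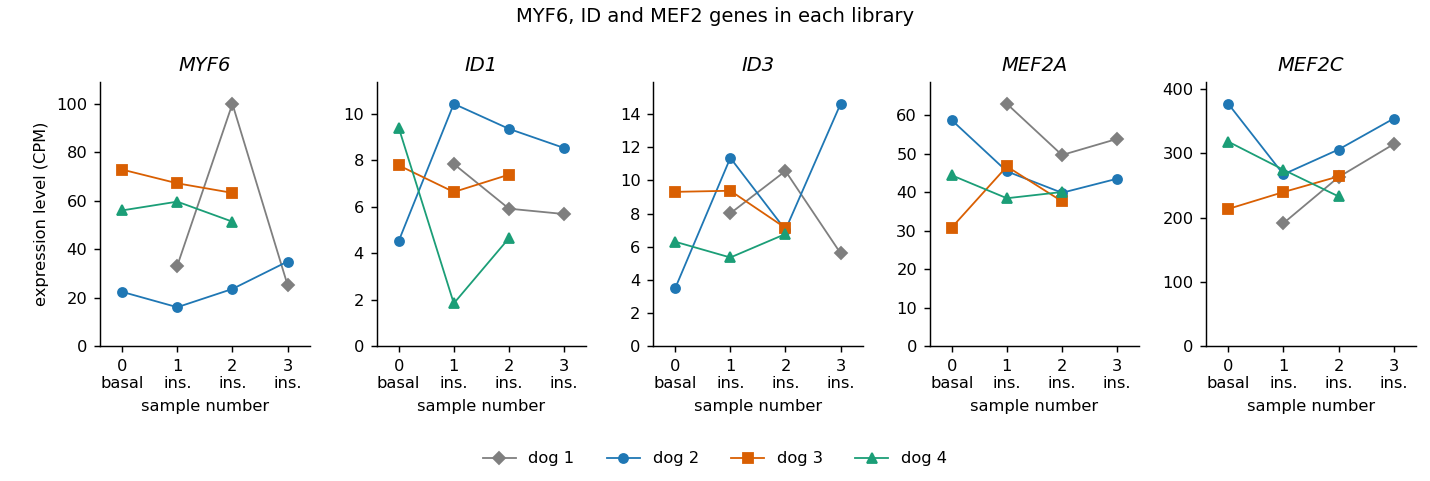
Expression level in CPM (vertical axis, from 0) of MYF6, ID1, ID3, MEF2A and MEF2C against the sample number (0 is basal, 1 to 3 are insulin), 1 point per library and 1 line per dog. In dog 2 the basal library has the lowest ID1 and ID3 of all basal libraries, and the MYF6 value of 99.97 CPM is that of dog 1 sample 2.

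MEF2C (ENSCAFG00000008302) and MEF2A (ENSCAFG00000010775), the MADS-box partners of the myogenic factors, had the smallest standard errors of the 9 genes. MEF2C held 377, 213 and 318 CPM in the basal libraries of dogs 2, 3 and 4, and from 191 to 354 CPM with a median of 266 CPM in the insulin libraries. MEF2A held 58.7, 30.8 and 44.4 CPM in basal, and from 37.6 to 63.0 CPM with a median of 44.5 CPM in the insulin libraries. The groups overlapped for both. In dogs 2 and 4 each gene was below its basal level in every insulin library, and in dog 3 each was above it. The log2 fold change was -0.14 ± 0.18 (95% interval -0.52 to 0.24) for MEF2C and -0.10 ± 0.17 (-0.45 to 0.26) for MEF2A, with an adjusted p of 1 for both. These intervals exclude a doubling or halving, which those of MYOG, MYF5 and PAX7 do not.

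Of the 9 genes, 1 was called higher and 0 lower in insulin against basal, beside 0.0273% higher and 0.109% lower among all 14629 genes tested, and 0.137% in either direction. An unadjusted p under 0.05 was found for 4 of 9 (MYOD1, MYOG, PAX7 and MYF5), against 4.12% of all genes. Insulin and basal libraries did not overlap for 2 of 9, MYOD1 and MYOG, both higher, against 0.93% of all genes (0.321% with insulin higher and 0.608% with insulin lower). Every insulin library lay above the basal library of its own dog for MYOD1, MYOG and PAX7, against 2.69% of all genes, and below it for none, against 3.44%. DESeq2 called MYOD1 and MYOG, against 0.576% of the 17871 genes for which it gave an adjusted p. The genes were chosen with these data known, so the shares describe them and do not test the set. The median log2 fold change of the 9 was -0.004, and that over all genes -0.001.

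The comparisons by sample number asked whether the levels under insulin differed between samples. Sample 1 against sample 0 and sample 2 against sample 0 share the 3 basal libraries and are given side by side. For MYOD1 the log2 fold change in sample 1 was 2.91 ± 0.40 (adjusted p = 0.0553) and in sample 2 it was 2.72 ± 0.40 (adjusted p = 0.0532). Neither passed in edgeR, and both passed in DESeq2, with RLE scaling (adjusted p = 0.0498 and 0.0427) and without dog 2 sample 0 (0.00751 and 0.00847). Over 22 alternatives MYOD1 was called in 6 for sample 1 and in 7 for sample 2. In the others it was not called, with an edgeR adjusted p of up to 0.666 and 0.814. MYOG had 1.26 ± 0.36 and 1.52 ± 0.36 (adjusted p = 0.898 and 0.400), PAX7 had 0.95 ± 0.38 and 0.60 ± 0.37, and MYF5 had -0.80 ± 0.43 and -0.86 ± 0.44. For PAX7 and MYF5 the adjusted p was 1 in sample 1 and 0.955 in sample 2.

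The number of the 9 genes called by edgeR was 0 in sample 1 against sample 0, with 3 at an unadjusted p under 0.05 (MYOD1, MYOG and PAX7) and 1 by DESeq2 (MYOD1). Of all genes 0% were called, 2.99% had such a p and 0.305% were called by DESeq2. In sample 2 against sample 0 it was 0 of 9, with MYOD1 and MYOG at such a p and called by DESeq2. Among all genes 0.0479% were called (0.0137% higher and 0.0342% lower), 4.95% had such a p and 0.573% were called by DESeq2. MYOG also passed in edgeR without dog 2 sample 0 (adjusted p = 0.0231).

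The test of the difference between samples 2 and 1, in which all 4 dogs took part, gave 0 of 9 called in edgeR, 0 with an unadjusted p under 0.05 and 0 in DESeq2. Over all genes edgeR called 0%, DESeq2 called 0.381% and 3.38% had an unadjusted p under 0.05. For MYOD1 the difference was -0.18 ± 0.32 (95% interval -0.89 to 0.53) and for MYOG 0.26 ± 0.31 (-0.42 to 0.94). The largest was that of MYF6, at 0.52 ± 0.37, and without dog 1 sample 2 it was -0.07. Sample 3 comes from dogs 1 and 2 alone, and its comparison with sample 2 was fitted over all 13 libraries. That comparison also had 0 of 9 called in edgeR, 0 with an unadjusted p under 0.05 and 0 in DESeq2. Among all genes edgeR called 0%, DESeq2 called 0.373% and 5.17% had such a p. MYOD1 had -0.30 ± 0.43 in sample 3 against sample 2 and MYOG -0.33 ± 0.41. The 95% interval of MYOD1 in that comparison reached from -1.25 to 0.65. From sample 2 to sample 3, MYOD1 went from 5.12 to 4.64 CPM in dog 1 and from 6.82 to 9.35 CPM in dog 2. The fit also draws on dogs 3 and 4, so its estimate need not match the change within dogs 1 and 2. Sample 3 was not fitted against sample 1. MEF2C had 0.14 ± 0.17 in sample 2 against sample 1 (95% interval -0.23 to 0.50). In sample 3 against sample 2 it had 0.28 ± 0.21 (-0.19 to 0.75), so both intervals include 0.

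**Figure D3:**
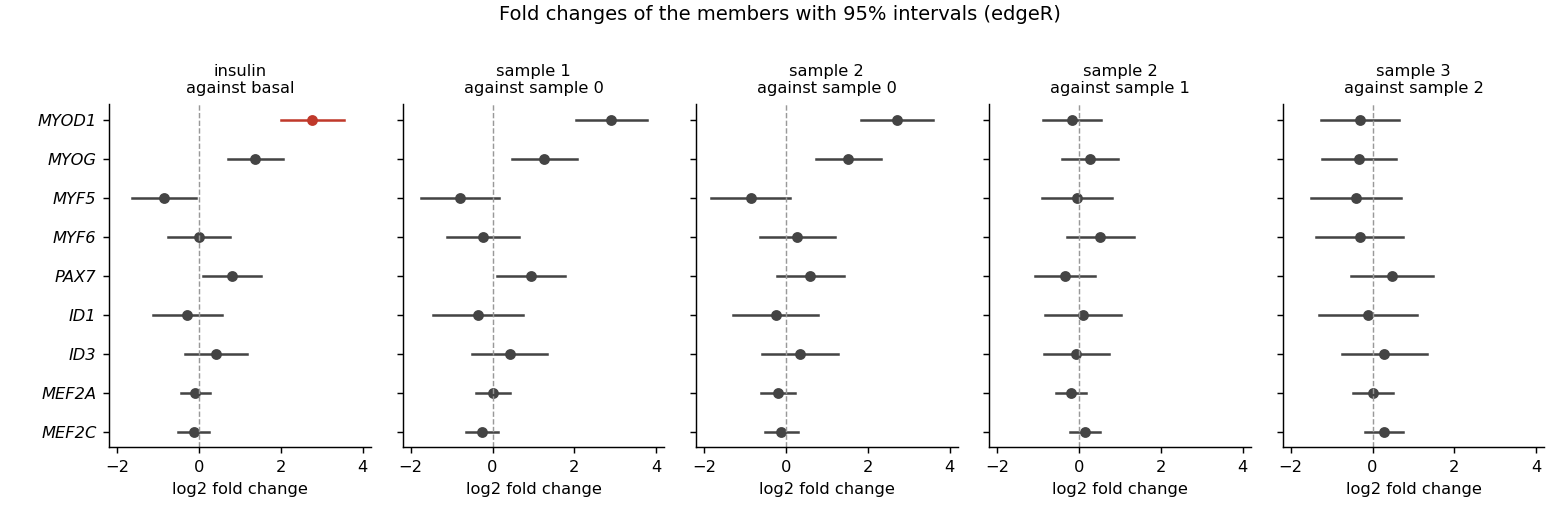
Log2 fold change (horizontal axis) of each of the 9 genes in the 5 comparisons, with points for the estimate and bars for its 95% interval from edgeR; red marks an adjusted p under 0.05. MYOD1 in insulin against basal is red, and its intervals in the comparisons of samples 1 and 2 with sample 0 also lie above 0.

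Ratios of genes within a library do not depend on the scaling of the library. Since each gene has its own length, only the change of a ratio between libraries is read here. MYOD1 over MYF5 was 0.528 to 1.97 in basal and 3.21 to 37.7 in insulin libraries, with no overlap. The level of MYOD1 alone had no overlap either, so this is not a separate result. MYOG over MYOD1 went the other way, from 1.33 to 2.94 in basal and from 0.307 to 1.23 in insulin libraries. These ranges did not overlap, though the gap between them was narrow. In dogs 2, 3 and 4, which have a basal library, MYOD1 rose by a larger factor than MYOG. This ratio also contains MYOD1, so it is not a separate result either. The difference between the 2 genes was not tested, and no share over other pairs of genes was computed. MYOD1 over the sum of ID1 and ID3 was 0.0691 to 0.370 in basal and 0.310 to 1.84 in insulin libraries, with an overlap at dog 2 sample 0. The sum of ID1 and ID3 itself was 8.02 to 17.1 CPM in the basal and 7.20 to 23.1 CPM in the insulin group.

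None of the partners of the myogenic factors passed. The E proteins TCF12, TCF4 and TCF3, with which MYOD1 and MYOG bind DNA and which ID proteins capture, had log2 fold changes of 0.15 ± 0.16, 0.12 ± 0.17 and -0.05 ± 0.29. ID4 was too scarce to be tested. Of these 3 tested, 0 passed in edgeR, 0 in DESeq2 and 0 had an unadjusted p under 0.05.

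Among 10 other MEF2 genes and cofactors, 0 passed in edgeR or DESeq2, and 2 had an unadjusted p under 0.05, beside 4.12% of all genes. Of all genes 3.44% were below their own basal in every insulin library. HDAC9, a class IIa histone deacetylase that holds MEF2 in a repressed state, did not pass, with means of 7.03 ± 3.83 (SD) and 3.63 ± 1.73 CPM in the basal and insulin groups, and was below its own basal library in 7 of 7 (-0.87 ± 0.34, adjusted p = 0.956). VGLL2, a muscle cofactor of TEAD proteins, had 53.7 ± 10.7 and 108 ± 64.2 CPM and was above its own basal library in 6 of 7 (0.73 ± 0.32, adjusted p = 1). MEF2D had -0.47 ± 0.40 and VGLL4 0.27 ± 0.42.

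Repressors of MYOD1 function gave 0 of 10 tested in edgeR and 1 in DESeq2, BHLHE40. BHLHE40, a helix-loop-helix repressor that is also part of the clock, averaged 97.2 ± 31.5 CPM without and 173 ± 49.2 CPM with insulin and was above its own basal library in 7 of 7 (0.94 ± 0.23, edgeR adjusted p = 0.263). It was the 1 member of this list with an unadjusted p under 0.05, beside 4.12% of all genes. DESeq2 called 0.576% of its genes, and 2.69% of all genes were above their own basal in every insulin library. MDFIC had -0.25 ± 0.30, ZEB2 0.08 ± 0.30 and ZEB1 0.01 ± 0.17, and the median of the list was 0.04.

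Upstream and partner regulators of myogenesis had a median of 0.02, with 14 of 28 positive, 0 called in edgeR and 2 in DESeq2, which were also those with an unadjusted p under 0.05. Of all genes 4.12% had such a p, and DESeq2 called 0.576% of those it gave an adjusted p. Every insulin library lay above the basal of its own dog for 2.69% of all genes and below it for 3.44%. CBFA2T3, a transcriptional corepressor, averaged 1.67 ± 1.26 CPM without and 8.49 ± 5.42 CPM with insulin and was above its own basal library in 7 of 7 (2.53 ± 0.60, edgeR adjusted p = 0.222). KLF5, a Kruppel-like factor, is named here as the other gene that DESeq2 called. It held 3.00 ± 0.535 and 1.26 ± 0.501 CPM and was below its own basal library in 7 of 7 (-1.24 ± 0.31, edgeR adjusted p = 0.264). The transcriptional cofactors EYA1 and EYA4 had -0.44 ± 0.24 and -0.45 ± 0.34, and MYBPH, a myosin-binding protein placed in this list, had 0.84 ± 0.56.

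Bone morphogenetic protein (BMP) signalling through SMAD proteins is a main inducer of ID genes. Of 29 symbols 28 were found and 20 tested, of which 10 were positive and 10 negative, with a median of 0.01. In this list 0 passed in edgeR, 0 in DESeq2 and 0 had an unadjusted p under 0.05. The receptor ACVR1 had 0.41 ± 0.22, the ligands BMP6 and BMP4 0.43 ± 0.56 and -0.25 ± 0.40, and FST, which encodes the antagonist follistatin, 0.28 ± 0.42.

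Target genes of the myogenic factors had a median of 0.13, with 16 of 23 tested positive, beside 49.8% of all genes. Of these 23, 0 were called in edgeR and 0 in DESeq2. An unadjusted p under 0.05, which 4.12% of all genes had, was found for 1. That was DOK7, an activator of the kinase MUSK at the neuromuscular junction, at 2.75 ± 0.850 CPM without and 4.60 ± 1.13 CPM with insulin (0.76 ± 0.29, above its own basal in 6 of 7, adjusted p = 0.927). MUSK itself had 0.41 ± 0.24, also above its own basal in 6 of 7. The acetylcholine receptor subunit CHRNB1 had -0.22 ± 0.16 and TNNT2, the cardiac form of troponin T, had 0.72 ± 0.54 (adjusted p = 1 for these 3). By sample number the list was uneven. It had 15 positive and 8 negative values in sample 1 against sample 0, and 10 and 13 in sample 2 against sample 0.

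Genes with the pattern most like that of MYOD1 were sought among 8270 other genes with a symbol and a mean log2 CPM of at least 1, by Pearson r of log2 CPM over the 13 libraries after each dog's mean was taken away. The values describe libraries that share dogs and depth, and the insulin against basal difference is itself part of them. The highest r with MYOD1 were those of MID1IP1 (0.97), a partner of acetyl-CoA carboxylase, SLC35E4 (0.97), a solute carrier, G0S2 (0.96), an inhibitor of the lipase ATGL, PPP1R3C (0.95), a glycogen-targeting subunit of protein phosphatase 1, and VANGL1 (0.95), a planar polarity protein. G0S2 averaged 15.7 CPM without and 141 CPM with insulin, and PPP1R3C 85.2 and 332 CPM. For MYOG they were TENT5B (0.97), G0S2 (0.97), MID1IP1 (0.97), MOB3C (0.94) and HOMEZ (0.94).

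Between the members, r on the same scale was 0.91 for MYOD1 and MYOG, 0.63 for MYOD1 and PAX7 and -0.73 for MYOD1 and MYF5. It was -0.33 for MYOD1 and ID1, 0.24 for MYOD1 and ID3, and 0.45 for ID1 and ID3. For ID3 the most similar genes were CAV1 (0.94), CD200 (0.91), THSD1 (0.91), CAV2 (0.91) and ADA (0.91). CAV1 and CAV2 encode caveolins, which are abundant in endothelium. For ID1 they were ZNF606 (0.88), TCIM (0.88), UTP25 (0.83), NUFIP2 (0.82) and HNRNPR (0.82), so the nearest genes of ID1 and ID3 were not shared.

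**Figure D4:**
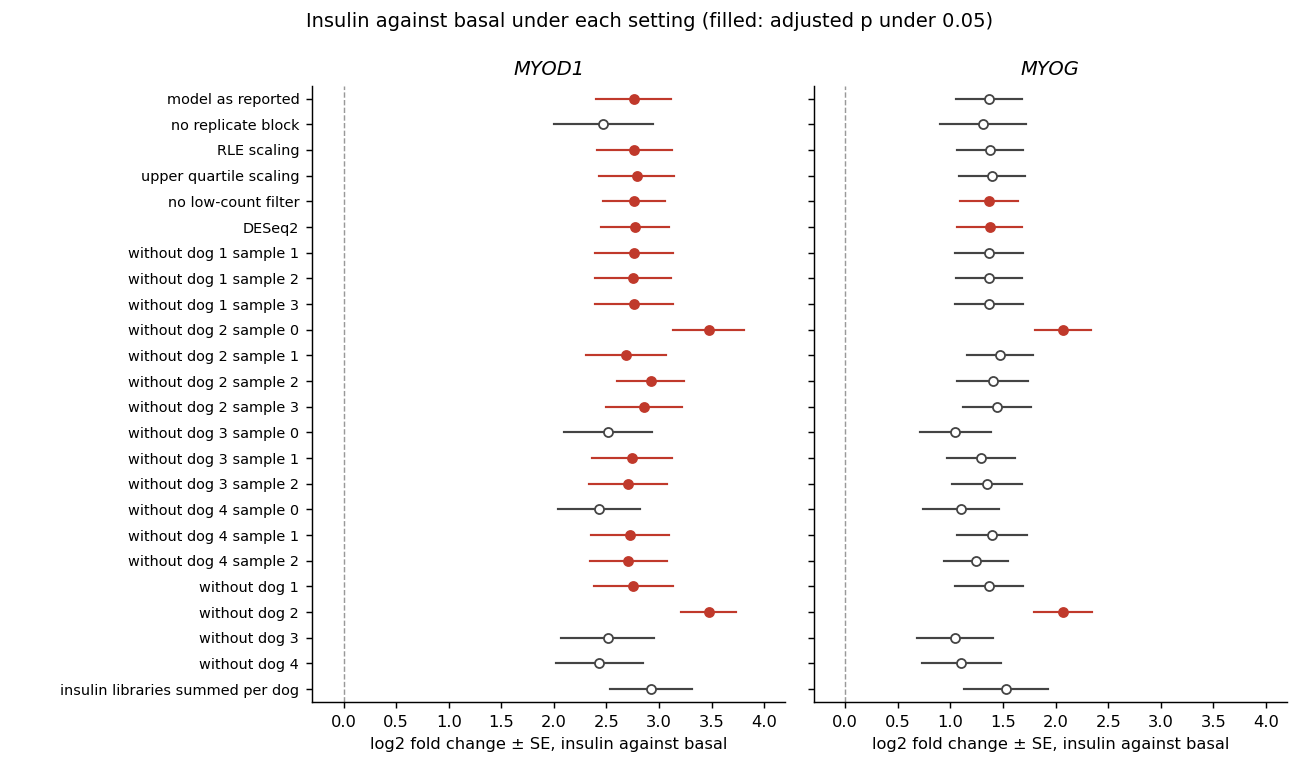
Log2 fold change with its SE (horizontal axis) of MYOD1 and MYOG in insulin against basal under the reported model and each of 23 alternatives. Filled red points have an adjusted p under 0.05: MYOD1 is filled in 17 of the 23 alternatives and MYOG in 4, and all values lie above 0.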

How the data were processed

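The authors deposited 1 table of raw read counts per gene and library, as whole numbers, and a normalized signal that the authors made by dividing each count by 1 size factor per library, per the file headers. Counts were used for every value. The submitters' processing notes name Bowtie 0.12.2 and CanFam3.1 without a role, and the sources used here do not state the counting program, annotation release or strand setting. Per the labels' protocols the authors used a library kit that does not mark strand, so antisense or overlapping transcripts may add to a gene. The series' design text describes another tissue and species and was not used.

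Counts were fitted in R 4.3.3 with edgeR 4.0.16 (filterByExpr, TMM scaling, robust quasi-likelihood test) over 14629 genes, with dog and stimulation or dog and sample number as terms. P values were adjusted over all genes (Benjamini-Hochberg, threshold 0.05). CPM use the TMM-scaled total, and intervals are 95% from the fitted spread. Dog numbers pair the libraries because they name the animal: deviations from group means had a median r of 0.171 within dogs (15 pairs) and -0.066 between dogs (47 pairs). Dog 1 has no basal library and enters insulin against basal through the spread alone. Insulin libraries from 1 animal entered as separate samples beside the dog term. No libraries within a group matched within counting error (lowest chi-square per gene 144 over 16 pairs). On simulated counts for insulin against basal (14365 genes), 47% of 100 genes changed 2-fold and 94% of 100 changed 4-fold were called, with 3 false calls. The simulated dogs did not differ in level or in response, and the changed genes were drawn from those above 2 CPM. These shares therefore do not carry over to scarcer genes or to dogs that respond unequally.

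Alternatives were no dog block, RLE and upper quartile scaling, no low-count filter, DESeq2 1.42.0, insulin libraries summed per dog, and each library and each dog left out. Members and lists were chosen with earlier results of these data known. The text names all members, up to 4 genes of lowest p per list with a mean log2 CPM of at least 1, and 5 genes of most similar pattern for MYOD1, MYOG, ID1 and ID3. Outside this rule it names scarcer list genes with an unadjusted p under 0.05 (CHRDL2, KLF5, S100A12, CSF3R, CXCR2, CNN1, ALAS2 and CD4). It also names ID4, which was not tested, and ITGA7 and LCN2 as limits on their lists. Of marker lists for other cells, 0 of 11 smooth muscle, 10 fibroblast, 6 adipocyte, 9 macrophage, 4 red blood cell, 7 lymphocyte and 7 nerve markers tested passed in edgeR in insulin against basal, with medians of 0.20, -0.34, -0.07, -0.29, -0.90, -0.25 and 0.27, and 1 (CNN1), 0, 0, 0, 1 (ALAS2), 1 (CD4) and 0 of them at an unadjusted p under 0.05. DESeq2 called 1 of these, the red blood cell gene ALAS2. Muscle fibre markers had a median of 0.04 (0 of 13 passed in edgeR, 0 in DESeq2, and 0 had such a p).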

Additional observations from a re-analysis of the deposited data

Results flagged for a closer look

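Among 27 groups of values (9 genes in insulin sample 1, insulin sample 2 and all insulin libraries), 2 held a library far from the others by Dixon's criterion, which chance meets in about 1 group in 20. MYOD1 in insulin sample 1 was lowest in dog 1, at 5.597 CPM, where the gap to the next library was 0.845 of the range of 4 libraries. ID3 in insulin sample 2 was highest in dog 1, at 10.6 CPM, with a gap of 0.904 of the range. Both libraries are from dog 1, which has no basal library.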

How the results depend on the processing

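Insulin against basal had 20 genes called and MYOD1 as the 1 member. With no replicate block it had 6 genes and 0 members, with no low-count filter 140 and 2, in DESeq2 103 and 2, and with insulin libraries summed per dog 1 and 0. Leaving out single libraries or dogs gave 4 (without dog 4) to 28 genes (without dog 1 sample 2) and 0 to 2 members. Sample 1 against sample 0 had 0 genes, and 4 genes and 1 member with RLE scaling, 16 and 1 with no filter, 77 and 1 in DESeq2, and 0 to 8 genes and 0 to 1 members with libraries or dogs left out. Sample 2 against sample 0 had 7 genes and 0 members. It had 0 genes with no replicate block, 28 genes and 1 member with no filter, 142 and 2 in DESeq2, 1 member with RLE or upper quartile scaling, and 0 to 13 genes and 0 to 2 members with libraries or dogs left out. DESeq2 also called 96 genes in sample 2 against sample 1 and 94 in sample 3 against sample 2, where edgeR called 0. The cause was not tested.

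Log2 fold changes that turned sign were all of values that did not pass. In insulin against basal MYF6 was 0.0033 with RLE scaling, 0.024 with upper quartile scaling and 0.0031 in DESeq2, and MEF2A was 0.037 with no replicate block. Ranges with libraries or dogs left out were -0.12 to 0.078 for MYF6, -0.89 to 0.44 for ID1, -0.12 to 0.76 for ID3 and -0.32 to 0.13 for MEF2A. In sample 1 against sample 0 they were -1.05 to 0.54 for ID1, -0.17 to 0.77 for ID3 and -0.25 to 0.23 for MEF2A. In sample 2 against sample 0 they were -0.092 to 0.51 for MYF6, -0.82 to 0.56 for ID1, -0.14 to 0.74 for ID3, -0.42 to 0.024 for MEF2A and -0.31 to 0.023 for MEF2C. In sample 2 against sample 1 they were -0.40 to 0.11 for MYOD1, -0.29 to 0.26 for MYF5, -0.070 to 0.77 for MYF6, -0.29 to 0.36 for ID1 and -0.43 to 0.12 for ID3, and MYF5 was 3e-04 with no replicate block. In sample 3 against sample 2 they were -1.52 to 0.76 for MYF6, -0.47 to 1.24 for PAX7, -0.44 to 0.07 for ID1, -0.78 to 1.11 for ID3 and -0.056 to 0.089 for MEF2A, and with no replicate block PAX7 was -0.32 and ID1 0.059. MYF5 and PAX7 rest on 22 to 256 counts per library, which limits their precision.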
